A study of Mus musculus with 16 samples.

Results

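The collagen chain genes are the 44 protein-coding genes of the deposited table whose symbol is Col, a type number, the letter a and a chain number, out of 55414 genes in the table. They were sorted by the kind of assembly they build, from general knowledge: 11 fibrillar chains, 6 basement membrane chains of type IV collagen, and 27 others, which include the beaded filament chains of type VI, the fibril-associated (FACIT) chains, the multiplexins, short-chain network formers and transmembrane collagens. Of these 44 chains, 32 had enough counts to be tested (11 fibrillar, 5 basement membrane and 16 others) and 12 did not.

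MLECs, mouse lung endothelial cells, were isolated from 4 independent Eng fl/fl mice that carry the tamoxifen-inducible Cre recombinase in the Rosa26 locus, which is active in every cell type, and the Immorto transgene, which lets primary cells be expanded in culture. Vehicle-treated cells of each isolation served as Ctrl, and cells in which Eng was deleted with 4-OH-tamoxifen served as KO. Eng encodes endoglin (ENG), the endothelial co-receptor of bone morphogenetic protein 9 (BMP9), and after serum starvation each genotype was given PBS or ligand for 90 min (0.2 ng/ml, counted as growth factor domain). The ligand of Ctrl cells was sENG(M):BMP9, a complex with a monomeric form of soluble ENG, and that of KO cells was pro:BMP9, in which BMP9 carries its prodomain. Each isolation thus gave 1 library to each of 4 groups: Ctrl PBS, KO PBS, Ctrl sENG(M):BMP9 and KO pro:BMP9. Loss of Eng coincides with 4-OH-tamoxifen in these groups, and genotype coincides with the form of the ligand, so neither pair can be told apart.

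Collagens are trimers of chains that wind into a triple helix, either of 1 kind of chain or of several. Fibrillar collagens give tissue its tensile strength and are made mainly by fibroblasts and smooth muscle cells, whereas endothelial cells lay down a basement membrane whose scaffold is type IV collagen, together with type XVIII collagen, the precursor of endostatin. A chain whose partner is missing is generally not secreted as a stable trimer, so that the levels of partner chains are of interest side by side.

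The 16 libraries held between 14869115 and 17242117 counts, and collagen chains took 0.712% to 0.984% of them. The targeted gene had 6253 to 11585 counts in Ctrl libraries and 632 to 2063 in KO libraries, without overlap. The ligand was active in both genotypes, since Smad6, a target of BMP signalling, rose by 3.45 ± 0.06 (log2 fold change ± SE) in Ctrl cells and by 3.21 ± 0.06 in KO cells. The endothelial markers Cdh5 and Pecam1 averaged 2107 and 1390 CPM (read counts scaled to library size), whereas Sftpc, Epcam, Ptprc, Itgam, Tcf21 and Dpt, which mark alveolar and other epithelia, leukocytes and fibroblasts, had at most 7 counts in any library. Other members of those lists were measurable: the 4 epithelial markers summed to 46.6 to 177 CPM, nearly all of it Krt18, and the 3 leukocyte markers to 27.6 to 40.3 CPM, nearly all of it Cd68. The fibroblast, mural and mesothelial markers were measurable too, and their levels are given beside the results they move with.

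Collagen expression in MLECs was carried by Col4a1, Col18a1 and Col4a2. Compared per kilobase of deposited gene length, Col4a1 averaged 358 CPM per kb, Col18a1 279.5 CPM per kb and Col4a2 238 CPM per kb over the 16 libraries, which placed them at 75, 116 and 146 among 15693 tested genes. Together these 3 chains held 65.6% to 82.1% of all collagen counts. Col4a1 (ENSMUSG00000031502) and Col4a2 (ENSMUSG00000031503) encode the chains of the common type IV network, and Col18a1 (ENSMUSG00000001435) encodes the core of a heparan sulphate proteoglycan of the vascular basement membrane. Col4a1 and Col4a2 lie head to head on chromosome 8 of GRCm39, at 11248423 to 11362826 on the minus strand and 11362805 to 11499287 on the plus strand, and their annotated ends overlap by 22 bases. The region between them is shown because the pair is transcribed from 1 shared stretch. RefSeq windows of 300 bases, 250 before the start and 50 from it on, were taken on GRCm38.p6 at chr8:11312777-11313076, minus strand, and chr8:11312555-11312854, plus strand. The starts lie 21 bases apart and the windows share 78 bases. Capitals mark exact matches on either strand to CCAAT, the GC box GGGCGG, the TATA box TATAAA and the GC-rich SMAD motif GGCGCC, where matches to GGGCGG and GGCGCC may share letters.
Col4a1: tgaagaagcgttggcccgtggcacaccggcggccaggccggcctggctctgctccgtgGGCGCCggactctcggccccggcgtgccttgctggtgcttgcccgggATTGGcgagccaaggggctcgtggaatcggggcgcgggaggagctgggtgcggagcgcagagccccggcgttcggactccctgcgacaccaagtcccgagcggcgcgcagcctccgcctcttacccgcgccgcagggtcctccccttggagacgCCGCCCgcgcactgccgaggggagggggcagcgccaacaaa
Col4a2: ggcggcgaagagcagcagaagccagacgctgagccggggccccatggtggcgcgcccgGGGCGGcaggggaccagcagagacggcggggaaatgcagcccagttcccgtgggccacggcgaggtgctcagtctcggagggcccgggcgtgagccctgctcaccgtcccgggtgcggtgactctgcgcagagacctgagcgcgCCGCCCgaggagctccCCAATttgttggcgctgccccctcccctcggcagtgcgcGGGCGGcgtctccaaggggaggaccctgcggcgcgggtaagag

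Both windows are rich in G and C and neither holds TATAAA. Over the 35 chains with a window (38 windows), 60.5% of windows held GGGCGG, against 35.7% of all 32851 windows, at a median GC content of 59.8% against 52.7%. CCAAT was found in 34.2% of the chains' windows against 37.4% of all windows, TATAAA in 13.2% against 13.6%, and GGCGCC in 13.2% against 11.9%. A match is a description of these letters, at any place in the window, and not a site. No window was given for Col1a1, Col2a1, Col4a3, Col5a2, Col9a3, Col12a1, Col14a1, Col22a1 and Col26a1.

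The next chains were far lower. Col5a1, a fibrillar chain that regulates fibril diameter, averaged 45.9 CPM per kb, and its 16 libraries (34.6 to 61.9 CPM per kb) did not reach those of Col4a2 (190 to 271 CPM per kb). Col6a1 of the beaded filaments followed at 44.6 CPM per kb, Col8a1 of the subendothelial type VIII network at 38.1 CPM per kb, and Col1a1 of the major fibrillar collagen at 33.7 CPM per kb. The ranges of these 4 chains overlapped, so that their order depends on the isolation. Col23a1, a transmembrane collagen, and Col15a1, a multiplexin of vessel basement membranes, averaged 23.9 and 23.7 CPM per kb. Below them Col5a2 stood at 18.5 CPM per kb, Col6a2 at 15.4 CPM per kb, Col5a3 at 11.9 CPM per kb, Col3a1 at 9.11 CPM per kb, Col1a2 at 9.05 CPM per kb, Col4a5 at 7.54 CPM per kb and Col6a3 at 6.47 CPM per kb. The remaining 16 tested chains averaged between 0.0418 CPM per kb (Col2a1, the cartilage collagen) and 4.79 CPM per kb (Col16a1, a FACIT chain). The order per kb depends on the deposited gene lengths, since without scaling by length Col1a2 averaged 112 CPM and Col3a1 89.4 CPM. As shares of collagen counts, basement membrane chains held 46.6% to 56.6%, other chains 34.6% to 37.1% and fibrillar chains 7.62% to 17.4%.

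**Figure D1:**
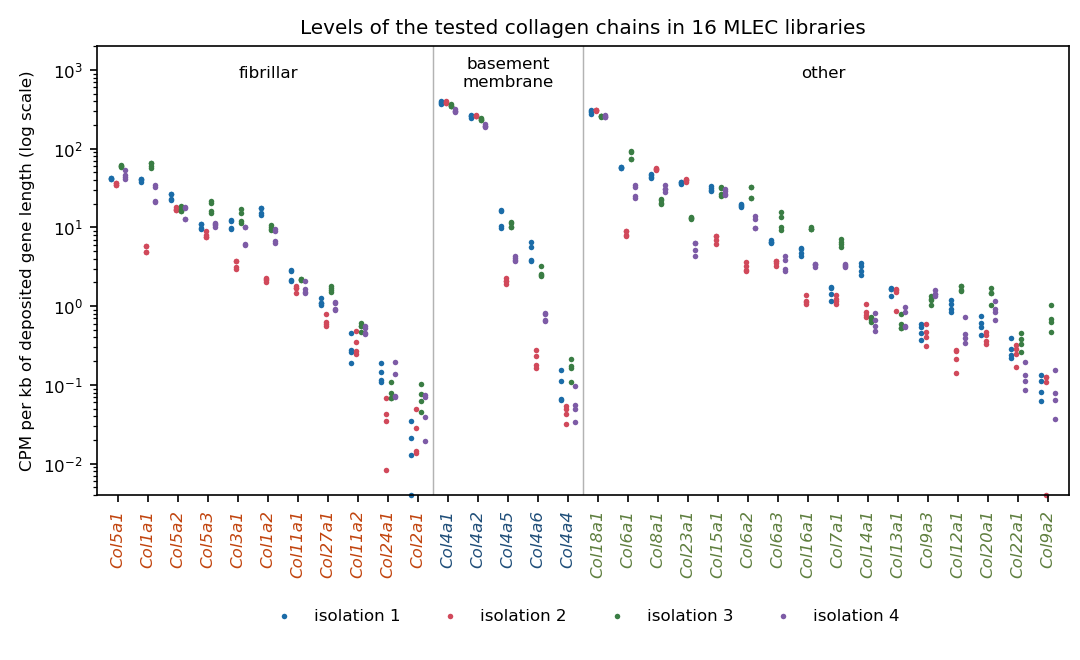
Level of each of the 32 tested collagen chains in the 16 libraries, as CPM per kb of deposited gene length on a log axis, with 4 points for each isolation (its 4 groups). Libraries with no count are drawn at the lower edge. Col4a1, Col4a2 and Col18a1 stand above every other chain, and the 4 groups of an isolation lie close together while isolations differ by up to 23.1-fold (Col4a6).

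The 12 chains too low to test were Col4a3 with 78 counts over the 16 libraries, Col28a1 with 67, Col17a1 with 65, Col8a2 with 54, Col25a1 with 43, Col6a5 with 22, Col9a1 with 15, Col6a4 with 10, Col19a1 with 6 and Col10a1 with 1. Col26a1 and Col6a6 had no count in any library, where a count of 0 allows up to 3 counts each. Col10a1 and Col9a1 are cartilage chains and Col17a1 is a hemidesmosome collagen of epithelia. Col4a3 belongs with Col4a4, its head-to-head neighbour on chromosome 1, to the network of the glomerulus and alveolus, and Col4a4 passed the filter with a mean of only 0.0920 CPM per kb. These values cover counting error only.

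The isolation set most of the differences among libraries in collagen expression. The median share of the variance of log2 CPM that lay between isolations was 92.9% over the 32 chains and 63.8% over all 15693 tested genes. The highest isolation exceeded the lowest by a median of 3.66-fold in the chains and 1.37-fold in all genes. The difference was over 2-fold for 25 of 32 chains (78.1%), against 20.1% of all genes. These shares are descriptions, since the 4 libraries of an isolation share their cells. Of the 7 chains within 2-fold, the 3 most abundant had the narrowest ranges, beside Col5a1, Col5a2 and the scarce Col11a1 and Col11a2 (1.48-fold to 1.84-fold). Mean Col18a1 in isolations 1 to 4 was 2074, 2163, 1811 and 1802 CPM, and mean Col4a1 was 2898, 2885, 2635 and 2262 CPM. The highest isolation exceeded the lowest by 1.20-fold for Col18a1, 1.28-fold for Col4a1 and 1.34-fold for Col4a2.

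Isolation 2 had the least of most chains. It was the lowest isolation for 19 of 32 chains (59.4%, against 30.8% of all tested genes), and isolation 3 was the highest for 17 (53.1%, against 27.0%). Col1a1 averaged 262, 35.1, 407 and 181 CPM in isolations 1 to 4, an 11.6-fold range. Col6a1 averaged 252, 37.0, 366 and 127 CPM, a 9.88-fold range. Col4a6, a chain of specialised basement membranes such as those around smooth muscle, averaged 39.7, 1.72, 21.3 and 5.86 CPM, the widest range of all tested chains. A few chains ran the other way, with Col8a1 at 352, 434, 167 and 241 CPM and the transmembrane Col23a1 at 212, 229, 75.0 and 31.7 CPM. Col14a1, a FACIT chain, was highest in isolation 1, at 21.2 CPM against 4.43 to 6.0 CPM in the other isolations.

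Markers of other cell types moved with the isolations as well. The summed level of the 15 fibroblast and mural markers was 219 to 229 CPM in isolation 2 and 349 to 480 CPM in the other isolations. Msln and Upk3b, which mark mesothelium, summed to 2.81 to 4.72 CPM in isolation 2, 19.9 to 24.3 CPM in isolation 4, 127 to 139 CPM in isolation 3 and 183 to 312 CPM in isolation 1. The 12 endothelial markers summed to 7937 to 8041 CPM in isolation 2 and 3876 to 4126 CPM in isolation 3. The epithelial markers, of which Krt18 makes up nearly all, were highest in isolation 2, at 159 to 177 CPM, against 94.2 to 112 CPM in isolation 1, 53.3 to 72.5 CPM in isolation 3 and 46.6 to 57.5 CPM in isolation 4. In bulk libraries, fewer cells of a type and less RNA per cell cannot be told apart, and the part of these markers in the collagen levels was not tested.

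**Figure D2:**
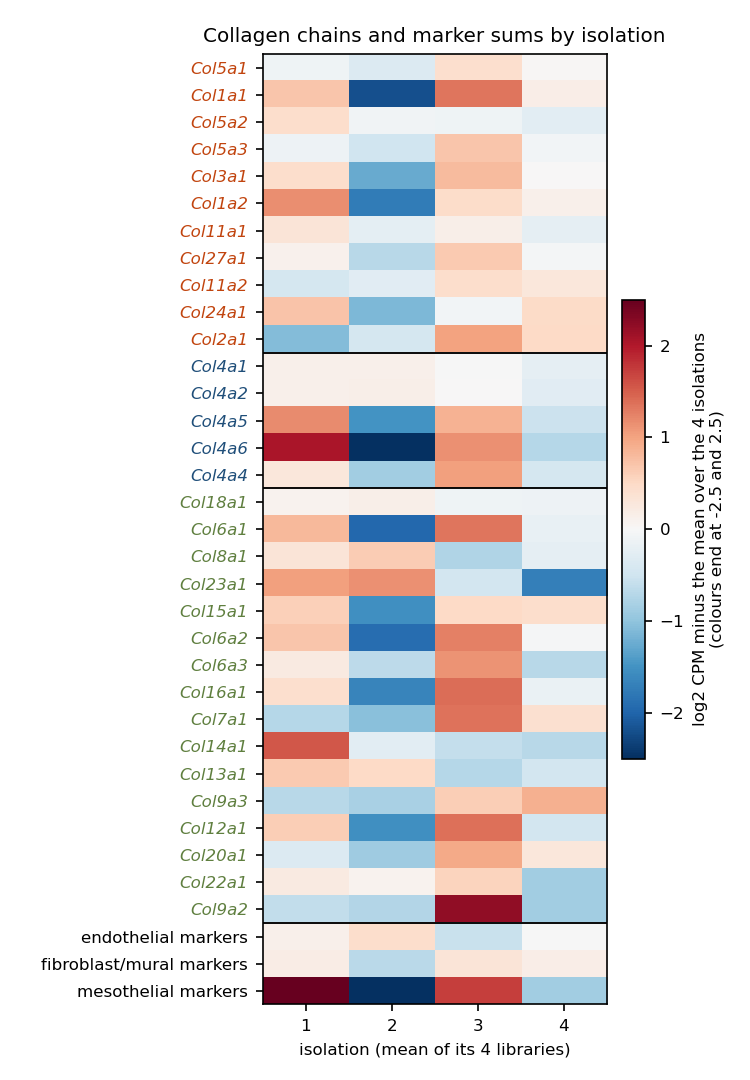
Mean log2 CPM of each tested collagen chain in each isolation, minus its mean over the 4 isolations, with the summed levels of the marker lists in the bottom 3 rows. Isolation 2 is lowest for 19 of 32 chains and isolation 3 highest for 17, and Col4a1, Col4a2 and Col18a1 are nearly even.

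Every group contains all 4 isolations, so KO and Ctrl cells were compared within isolations, which asks what loss of Eng (with 4-OH-tamoxifen) did to collagen expression. Over PBS and ligand together, 8 of 32 tested chains were lower in KO cells and none was higher, with edgeR's quasi-likelihood test at an adjusted p under 0.05, beside 1.38% of all tested genes called and 0.682% called lower. Among fibrillar chains 4 of 11 tested were lower (Col3a1, Col5a2, Col1a1 and Col1a2), among basement membrane chains 2 of 5 (Col4a5 and Col4a6), and among the others 2 of 16 (Col6a1 and Col6a2). This test counts the PBS and the ligand difference of an isolation separately, although they come from the same cells. When the PBS and ligand libraries of each isolation and genotype were summed, so that each isolation gave 1 difference, Col3a1 alone passed (log2 fold change -0.46 ± 0.07, edgeR adjusted p = 0.0351), beside 0.121% of all tested genes. The other 7 chains kept their estimates and did not pass, with adjusted p between 0.180 and 0.316 by edgeR. The median log2 fold change of the 32 chains was -0.14, against -0.00 over all tested genes, and 26 of 32 chains had a value under 0, against 50.4% of all genes. When the isolation was left out of the model as a block, none of the 32 chains passed (edgeR, with none at an unadjusted p under 0.05 either), and 1 gene of all tested did. Col4a1, Col4a2 and Col18a1 did not pass the test, and their 95% confidence intervals were narrow: -0.06 to 0.04, -0.05 to 0.05 and -0.04 to 0.06 on the log2 scale. With the libraries of each isolation summed these intervals were -0.07 to 0.06, -0.07 to 0.07 and -0.07 to 0.08.

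Fibroblast and mural markers moved in the same comparison. Of the 13 tested genes of that list, Pdgfrb, Dcn and Lum were lower in KO cells and Kcnj8 was higher, and the median log2 fold change of the list was -0.21. Dcn, a proteoglycan that binds collagen fibrils, changed by -0.61 ± 0.06 (log2 ± SE, edgeR adjusted p = 1.18e-04) and Pdgfrb by -0.24 ± 0.04 (edgeR adjusted p = 0.00753, and 0.0702 without isolation 3). With the libraries of each isolation summed, Dcn passed (adjusted p = 0.0335) and Pdgfrb, Lum and Kcnj8 did not (adjusted p between 0.127 and 0.219). In isolations 1 to 4 the list summed to 470, 219, 453 and 449 CPM in Ctrl PBS and to 350, 229, 430 and 360 CPM in KO PBS. With ligand it summed to 480, 229, 464 and 466 CPM in Ctrl and 355, 229, 452 and 349 CPM in KO cells, with Dpt and Tcf21 at or near 0. The list was thus lower in KO cells of isolations 1 and 4 and changed little in isolations 2 and 3. Isolation 4 is also where Col3a1, Col1a1, Col1a2, Col5a2 and Col6a1 had their largest differences, and isolation 1 where Col4a5 and Col4a6 had theirs. Other values did not follow the list. In isolation 3 Col3a1 went from 167 CPM in Ctrl PBS to 120 CPM in KO PBS, and Col6a2 from 269 to 196 CPM. Between the same groups of isolation 1, Col1a1 went from 267 to 247 CPM, Col6a1 from 254 to 248 and Col6a2 from 154 to 152. In isolation 2 the KO minus Ctrl difference of Dcn was 0.01 on the log2 scale, and those of the 8 chains were -0.53 for Col4a6, -0.30 for Col3a1, -0.26 for Col1a1, -0.25 for Col6a2, -0.18 for Col6a1, -0.13 for Col4a5, -0.08 for Col5a2 and 0.06 for Col1a2. The mesothelial marker Upk3b was also lower (-0.73 ± 0.14, edgeR adjusted p = 0.0142), but not with DESeq2 (adjusted p = 0.382), without isolation 1 (adjusted p = 0.687) or with the libraries of each isolation summed (adjusted p = 0.183). Of the 12 endothelial markers only Esam passed the test, by 0.11 ± 0.03 (log2 ± SE), and it did not when any 1 isolation was left out (adjusted p between 0.0537 and 0.231). The part of these cells in the collagen difference was not tested beyond these values.

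Col3a1 (ENSMUSG00000026043, chromosome 1, 45350698 to 45388866, plus strand) encodes the homotrimeric type III collagen of vessel walls and lung. In Ctrl PBS cells of isolations 1 to 4 it stood at 118, 36.6, 167 and 99.9 CPM. The KO PBS cells of the same isolations had 94.4, 30.7, 120 and 59.9 CPM, lower in each, although the groups overlap because isolations differ. With ligand, Ctrl cells had 123, 36.6, 150 and 99.3 CPM and KO cells had 96.3, 28.7, 113 and 58.1 CPM, so that the same order held in all 4 isolations. Group means were 105 ± 53.8 CPM (SD, n = 4) in Ctrl PBS and 76.2 ± 39 CPM in KO PBS. The log2 fold change was -0.46 ± 0.07 in PBS (edgeR adjusted p = 0.0285), -0.47 ± 0.07 with ligand (edgeR adjusted p = 0.00894) and -0.47 ± 0.05 over both (edgeR adjusted p = 1.97e-04). Col3a1 was the 1 chain called in PBS, where 0.0191% of all tested genes were called, and the 1 chain called with ligand, where 0.255% were. The call over both treatments held without each isolation in turn, with log2 fold changes between -0.52 and -0.37. In PBS alone it missed the threshold when only the 8 PBS libraries were fitted (adjusted p = 0.0845), and without isolation 1 (adjusted p = 0.0502), 2 (adjusted p = 0.0575) or 3 (adjusted p = 0.308), and with ligand without isolation 3 (adjusted p = 0.0588).

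The promoter windows of Col3a1 and of Col1a2, the chain of type I collagen for which a window was given, are shown to compare fibrillar chains among the 8 that passed. They lie on GRCm38.p6 at chr1:45311288-45311587, plus strand, and chr6:4505368-4505667, plus strand, with matches to the motifs named above in capitals.
Col3a1: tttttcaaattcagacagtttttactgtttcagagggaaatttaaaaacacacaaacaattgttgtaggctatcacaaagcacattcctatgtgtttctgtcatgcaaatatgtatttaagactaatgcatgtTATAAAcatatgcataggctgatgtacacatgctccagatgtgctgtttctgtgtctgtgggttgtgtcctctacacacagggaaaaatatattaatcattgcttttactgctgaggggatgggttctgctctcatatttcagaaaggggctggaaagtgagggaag
Col1a2: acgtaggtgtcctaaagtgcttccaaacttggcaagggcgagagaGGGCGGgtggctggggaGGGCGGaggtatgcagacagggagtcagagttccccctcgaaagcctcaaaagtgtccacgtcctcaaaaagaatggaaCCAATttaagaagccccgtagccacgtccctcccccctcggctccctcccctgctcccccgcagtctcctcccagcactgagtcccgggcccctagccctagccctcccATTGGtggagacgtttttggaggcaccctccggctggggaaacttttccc

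The Col3a1 window holds 1 match to TATAAA and none to the other motifs, at a GC content of 37.7%. The Col1a2 window holds matches to the CCAAT box and the GC box and none to the TATA box, at a GC content of 61.0%. Of the 6 with a window among the 8 chains that passed between KO and Ctrl cells, 4 held a match to GGGCGG, 2 to CCAAT, 1 to TATAAA and none to GGCGCC.

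Type I collagen, the main fibrillar collagen, consists of Col1a1 and Col1a2 chains. Col1a1 stood at 267, 38.4, 436 and 216 CPM in Ctrl PBS cells and at 247, 32.1, 392 and 144 CPM in KO PBS cells of isolations 1 to 4. With ligand it stood at 267, 38.2, 431 and 227 CPM in Ctrl cells and 266, 32.0, 369 and 137 CPM in KO cells. The difference was widest in isolation 4, at -0.65 on the log2 scale, and nearly absent in isolation 1, at -0.06. Over both treatments the log2 fold change of Col1a1 was -0.29 ± 0.06 (edgeR adjusted p = 0.0202), and this was past the threshold without isolation 1 or 4 but not without isolation 2 (adjusted p = 0.0952) or 3 (adjusted p = 0.0843). With the libraries of each isolation summed, Col1a1 did not pass (edgeR adjusted p = 0.238). Col1a2 had 217, 25.4, 132 and 112 CPM in Ctrl PBS and 181, 28.3, 116 and 78.6 CPM in KO PBS, with isolation 2 higher in KO cells. Its log2 fold change over both treatments was -0.23 ± 0.05 (edgeR adjusted p = 0.0358). It was not past the threshold without isolation 1 (adjusted p = 0.225) or 3 (adjusted p = 0.113), nor without isolation 4, where the estimate was -0.13 (adjusted p = 0.213). Nor did it pass with the libraries of each isolation summed.

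Col5a2 encodes a chain of type V collagen, which is buried inside type I fibrils, and lies tail to tail with Col3a1 at a distance of 24.6 kb. It had 258, 165, 178 and 172 CPM in Ctrl PBS cells and 221, 162, 154 and 123 CPM in KO PBS cells. Values after ligand were 252, 172, 165 and 167 CPM in Ctrl cells and 211, 158, 153 and 121 CPM in KO cells, lower in KO cells of every isolation. The log2 fold change over both treatments was -0.24 ± 0.04 (edgeR adjusted p = 0.00922), and it was lost without isolation 1 (adjusted p = 0.0887). With the libraries of each isolation summed, Col5a2 did not pass (edgeR adjusted p = 0.183). Its partner Col5a1 did not pass the test, with a log2 fold change of -0.07 ± 0.03 (edgeR adjusted p = 0.425). The third chain of the type, Col5a3, had -0.14 ± 0.06 (edgeR adjusted p = 0.36), with isolation 1 higher in KO cells and the other isolations lower. No test of Col5a2 against Col5a1 was made.

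**Figure D3:**
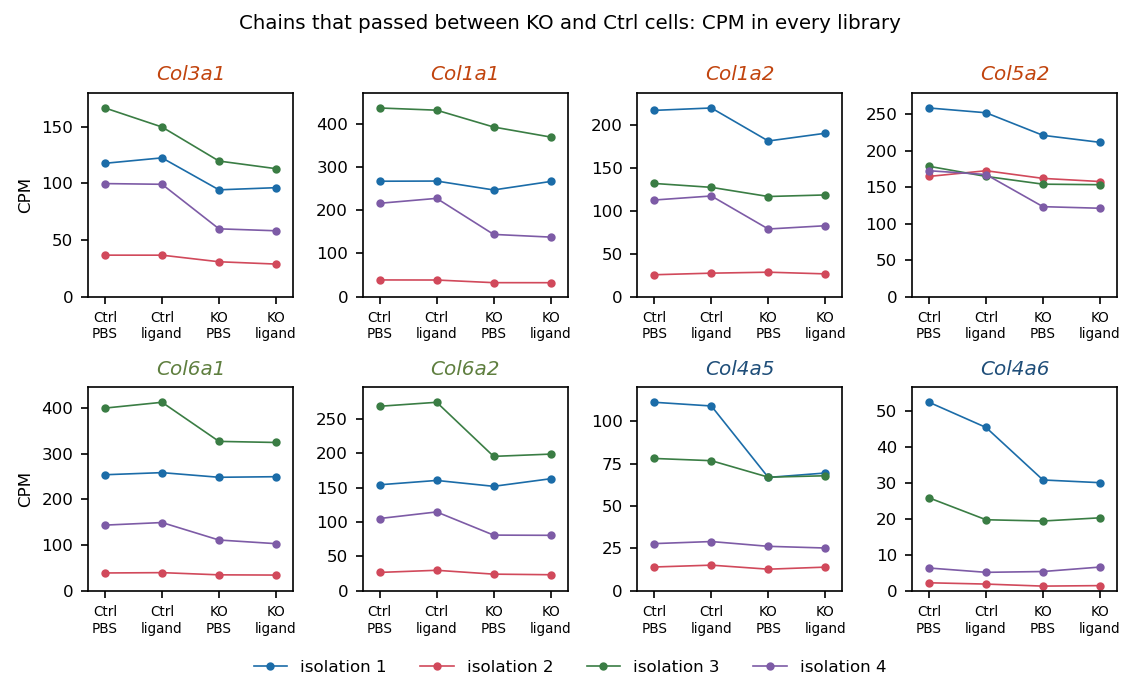
CPM in each of the 16 libraries for the 8 chains that passed the test between KO and Ctrl cells over PBS and ligand with all 16 libraries (1 of them, Col3a1, with the libraries of each isolation summed), with lines joining the 4 groups of an isolation (vertical axes start at 0, and ligand is sENG(M):BMP9 for Ctrl and pro:BMP9 for KO cells). Relative to its Ctrl level, isolation 4 falls most for Col3a1, Col1a1, Col1a2, Col5a2 and Col6a1 and isolation 1 for Col4a5 and Col4a6, and isolation 2 is lowest except for Col5a2.

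Col6a1, Col6a2 and Col6a3 build the beaded filaments that link cells to the interstitial matrix. Col6a1 and Col6a2 lie 85.2 kb apart on chromosome 10, on the same strand, and Col18a1 lies 326 kb beyond Col6a1. Col6a1 had 254, 39, 399 and 144 CPM in Ctrl PBS cells and 248, 34.9, 327 and 111 CPM in KO PBS cells. With ligand the Ctrl cells had 258, 39.7, 412 and 149 CPM and the KO cells 249, 34.4, 324 and 103 CPM. All 4 isolations were lower in KO cells, by -0.04 in isolation 1 to -0.45 in isolation 4. The log2 fold change over both treatments was -0.25 ± 0.04 (edgeR adjusted p = 0.00892), and without isolation 3 it was no longer past the threshold (adjusted p = 0.108). With the libraries of each isolation summed, Col6a1 did not pass (edgeR adjusted p = 0.180). Col6a2 had 154, 26.8, 269 and 105 CPM in Ctrl PBS and 152, 24.3, 196 and 81.1 CPM in KO PBS. Its log2 fold change was -0.29 ± 0.05 (edgeR adjusted p = 0.0103), with no difference in isolation 1, and it was lost without isolation 2 (adjusted p = 0.0504), 3 (adjusted p = 0.158) or 4 (adjusted p = 0.0710). Summing the libraries of each isolation also ended the Col6a2 call. Col6a3 had nearly the same estimate, -0.28 ± 0.08, with an adjusted p of 0.115 in edgeR, and isolation 1 was higher in KO cells. The chains Col6a4, Col6a5 and Col6a6, which can take the place of Col6a3 in some tissues, were too low to test.

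Col4a5 and Col4a6 lie head to head on the X chromosome, 1308 bases apart, and encode chains of a second type IV network. Col4a5 had 111, 14.1, 78.1 and 27.9 CPM in Ctrl PBS cells and 66.9, 12.8, 67.0 and 26.2 CPM in KO PBS cells. Ligand-treated cells had 109, 15.1, 76.8 and 29.1 CPM in Ctrl and 69.5, 14.0, 67.9 and 25.2 CPM in KO. Every isolation was lower in KO cells, but the difference was -0.69 in isolation 1 and between -0.20 and -0.13 in the others. The log2 fold change over both treatments was -0.33 ± 0.07 (edgeR adjusted p = 0.0165), and without isolation 1 it was -0.17 (adjusted p = 0.147). Col4a5 was also lost without isolation 3 (adjusted p = 0.0679) and with the libraries of each isolation summed. Col4a6 had 52.4, 2.23, 25.9 and 6.34 CPM in Ctrl PBS and 30.8, 1.31, 19.4 and 5.37 CPM in KO PBS, lower in each isolation. With ligand the Ctrl cells had 45.5, 1.88, 19.8 and 5.14 CPM and the KO cells 30.1, 1.45, 20.3 and 6.61 CPM, so isolations 3 and 4 were higher in KO cells. Over both treatments Col4a6 had a log2 fold change of -0.36 ± 0.09, just past the threshold (edgeR adjusted p = 0.0475), and without isolation 1 it was -0.16 (adjusted p = 0.628). Leaving out isolation 2 (adjusted p = 0.127) or 3 (adjusted p = 0.0963) also ended the call, as did summing the libraries of each isolation. Isolation 1 is the isolation with the most Msln and Upk3b, and the KO minus Ctrl difference of their levels there was -0.67 for Msln and -0.99 for Upk3b on the log2 scale. Their part in the Col4a5 and Col4a6 values was not tested.

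**Figure D4:**
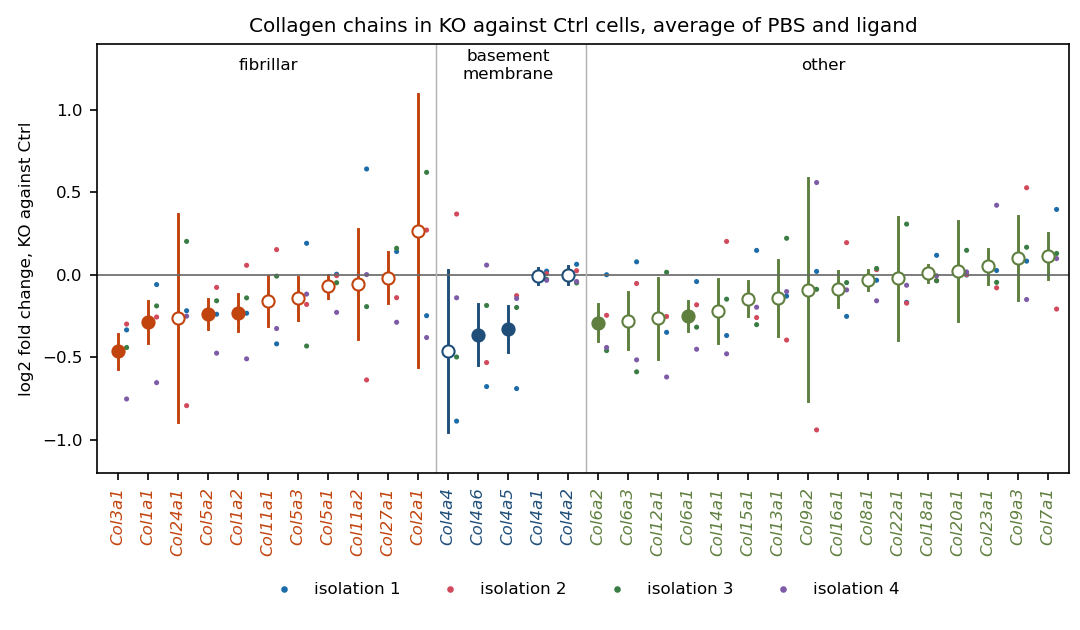
Log2 fold change of KO against Ctrl cells over PBS and ligand for the 32 tested chains, with 95% confidence intervals (lines), filled circles where the edgeR adjusted p was under 0.05, and the difference of each isolation as small points. The 8 filled circles all lie under 0 (with the libraries of each isolation summed, Col3a1 alone passed), and Col4a1, Col4a2 and Col18a1 lie at 0 with the narrowest intervals.

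The most abundant chains were the most precisely measured. Col4a1 had 2790, 2849, 2735 and 2203 CPM in Ctrl PBS cells of isolations 1 to 4 and 2831, 2813, 2620 and 2226 CPM in KO PBS cells. Group means were 2644 ± 298 CPM (SD, n = 4) and 2623 ± 281 CPM. After ligand the values were 2963, 2906, 2587 and 2375 CPM in Ctrl and 3010, 2972, 2599 and 2244 CPM in KO cells. Averaged over PBS and ligand, isolations 1 and 2 were slightly higher and isolations 3 and 4 slightly lower in KO cells. In isolations 2, 3 and 4 the PBS and ligand pairs went in opposite directions. Col4a2 had 1624, 1730, 1630 and 1258 CPM in Ctrl PBS and 1700, 1716, 1535 and 1275 CPM in KO PBS. Col18a1 had 1923, 2190, 1830 and 1748 CPM in Ctrl PBS and 2111, 2118, 1771 and 1789 CPM in KO PBS. Their groups overlapped throughout.

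The remaining tested chains were mostly close to or under 0 without passing the test. Of all 32 chains, 11 had an unadjusted p under 0.05 in PBS, all lower in KO cells, against 6.82% of all tested genes in either direction. They were the 8 chains above, Col6a3, Col15a1 and Col13a1. With ligand there were 8, again all lower, against 9.27% of all genes, and Col11a1 was the 1 among them not described above. Both comparisons have their own libraries, but those come from the same 4 isolations. Col15a1, the other multiplexin, had a log2 fold change of -0.14 ± 0.05 over both treatments (edgeR adjusted p = 0.220), with isolation 1 higher in KO cells and the other isolations lower. Without isolation 1 it was -0.26 and past the threshold (adjusted p = 0.0065). The chain with the highest estimate among those above 1 CPM per kb was Col7a1, which forms anchoring fibrils, at 0.11 ± 0.07 (edgeR adjusted p = 0.540).

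The ligand comparisons ask whether BMP9 changed collagen mRNA within 90 min. In Ctrl cells none of 32 chains passed the test, while 9.69% of all tested genes did (edgeR), and 2 chains had an unadjusted p under 0.05 (Col8a1 and Col4a6, both lower). DESeq2 also called none in Ctrl cells. In KO cells 1 chain passed, Col13a1, beside 5.59% of all tested genes. Over both genotypes Col13a1 rose and Col8a1 fell, 2 of 32 chains beside 13.1% of all tested genes. With so few chains these counts were not tested against those shares.

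Col13a1 encodes a transmembrane collagen of adhesive junctions and was low throughout, with 41 to 130 counts in a library. In KO cells of isolations 1 to 4 it stood at 6.22, 4.12, 2.46 and 2.54 CPM in PBS and at 7.94, 7.55, 3.76 and 3.99 CPM after pro:BMP9, higher in each isolation. In KO cells its response was 0.61 ± 0.16 (log2 fold change ± SE, edgeR adjusted p = 0.0270). Without any 1 of the isolations it lost the threshold, with estimates between 0.51 and 0.72 and adjusted p between 0.0606 and 0.240. In Ctrl cells it stood at 7.67, 7.03, 2.76 and 2.60 CPM in PBS and 7.72, 7.77, 2.44 and 4.51 CPM after sENG(M):BMP9, with isolation 3 lower and isolation 1 nearly level. The Ctrl log2 fold change was 0.18 (edgeR adjusted p = 0.612), and the difference of the responses was 0.43 ± 0.22 with an unadjusted p of 0.0709. Group means were 5.01 CPM in Ctrl PBS, 5.61 CPM in Ctrl sENG(M):BMP9, 3.83 CPM in KO PBS and 5.81 CPM in KO pro:BMP9. The lowest group was thus KO PBS, and the ligand groups were close. Over both genotypes the change was 0.40 ± 0.11 (edgeR adjusted p = 0.0207), which was not past the threshold without isolation 2 (adjusted p = 0.129) or 4 (adjusted p = 0.119).

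Col8a1 encodes a short-chain collagen of the subendothelial matrix. In Ctrl cells it went from 368, 436, 172 and 268 CPM in PBS to 343, 423, 157 and 241 CPM after ligand. In KO cells it went from 360, 449, 179 and 237 CPM to 335, 428, 160 and 218 CPM. All 8 pairs were lower with ligand, although the groups overlap because isolations differ. The change was small, -0.11 ± 0.03 on the log2 scale over both genotypes (edgeR adjusted p = 0.0130), and it was lost without isolation 1 (adjusted p = 0.0572) or 3 (adjusted p = 0.0807). Within each genotype it did not pass the test, with adjusted p of 0.122 in Ctrl and 0.152 in KO cells by edgeR. The windows of Col13a1 and Col8a1, which passed the test for ligand over both genotypes, are shown with the same motifs in capitals. They lie on GRCm38.p6 at chr10:61979059-61979358, minus strand, and chr16:57754688-57754987, minus strand.
Col13a1: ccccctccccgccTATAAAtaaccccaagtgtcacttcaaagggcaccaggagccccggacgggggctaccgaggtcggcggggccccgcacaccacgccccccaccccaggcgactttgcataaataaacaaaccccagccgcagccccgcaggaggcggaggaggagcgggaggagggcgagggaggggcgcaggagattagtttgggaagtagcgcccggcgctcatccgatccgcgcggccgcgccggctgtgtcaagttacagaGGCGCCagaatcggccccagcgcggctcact
Col8a1: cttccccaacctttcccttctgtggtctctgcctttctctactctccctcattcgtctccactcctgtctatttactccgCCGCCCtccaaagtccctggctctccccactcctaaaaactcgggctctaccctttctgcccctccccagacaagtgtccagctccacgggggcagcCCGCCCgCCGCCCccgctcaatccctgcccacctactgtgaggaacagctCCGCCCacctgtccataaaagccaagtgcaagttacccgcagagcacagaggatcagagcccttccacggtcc

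The Col13a1 window holds 1 match to GGCGCC and 1 to TATAAA, and the Col8a1 window holds 4 to GGGCGG and none to the other motifs. GGCGCC was found in the windows of 5 chains, Col13a1, Col16a1, Col4a1, Col4a4 and Col5a1. Over both genotypes Col13a1 alone of these 5 passed the test for ligand, beside 2 of 32 chains and 13.1% of all tested genes. A link of the motif to the ligand response was not tested.

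**Figure D5:**
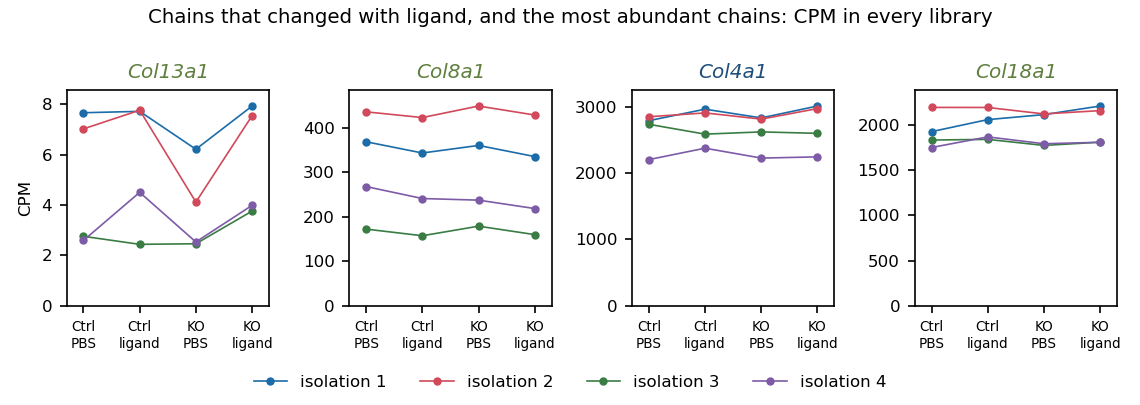
CPM in each of the 16 libraries for Col13a1 and Col8a1, which passed the test for ligand over both genotypes, and for Col4a1 and Col18a1, the most abundant chains (lines join the 4 groups of an isolation, axes start at 0). Col8a1 is lower with ligand in all 8 pairs, by about as much in Ctrl as in KO cells.

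The difference of the ligand responses between KO and Ctrl cells passed the test for no chain and no gene, with either edgeR or DESeq2. None of 32 chains had an unadjusted p under 0.05, against 565 of 15693 genes. Col4a6 came nearest among the chains, at 0.36 ± 0.18 (unadjusted p = 0.0550), from responses of -0.28 ± 0.12 in Ctrl cells (edgeR adjusted p = 0.186) and 0.08 ± 0.13 in KO cells (edgeR adjusted p = 0.909), of which none passed. For Col3a1 the 95% interval of the KO against Ctrl difference was -0.61 to -0.31 in PBS and -0.62 to -0.32 with ligand.

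The enzymes that modify, fold and crosslink collagen chains were examined beside the chains. Of 36 collagen synthesis enzymes and chaperones, 35 were tested, and 5 (14.3%) rose in Ctrl cells with none falling, beside 9.69% of all tested genes called in either direction. They were the prolyl hydroxylases P4ha2 and P4ha3, which stabilise the helix, the collagen galactosyltransferase Colgalt2, the transcription factor Creb3l1, and Loxl3, a crosslinking oxidase. P4ha3 rose by 0.56 ± 0.09 (log2 ± SE, edgeR adjusted p = 3.31e-04) and Loxl3 by 0.20 ± 0.06 (edgeR adjusted p = 0.0391), each in 4 of 4 isolations. In KO cells only Loxl3 passed, by 0.22 ± 0.06 (edgeR adjusted p = 0.0374), beside 5.59% of all tested genes. Without isolation 1, 2 or 4, Loxl3 missed the threshold in either genotype, with adjusted p between 0.0929 and 0.198, but over both genotypes it held without each isolation. Over both genotypes the same 5 genes passed, beside 13.1% of all tested genes. There P4ha3 held without each isolation in turn, Creb3l1 in 3 of 4 such fits, and P4ha2 and Colgalt2 in 2 of 4. Colgalt2 had at most 40 counts in a library. In KO against Ctrl cells over both treatments, the crosslinking oxidase Lox was the 1 gene of this list that passed, beside 1.38% of all tested genes. Its log2 fold change was -0.42 ± 0.08 (edgeR adjusted p = 0.0149). Its differences were -0.93, -0.15, -0.09 and -0.48 in isolations 1 to 4, and without isolation 1 (adjusted p = 0.0843) or 4 (adjusted p = 0.0804), or with the libraries of each isolation summed (adjusted p = 0.238), it was lost. For ligand over both genotypes Lox did not pass with all 16 libraries. It did when the Ctrl and KO libraries of each isolation and treatment were summed (0.23 ± 0.03, edgeR adjusted p = 1.72e-04).

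Of 12 collagen receptors, 10 were tested, and 1 passed with ligand in each genotype, beside 9.69% of all tested genes in Ctrl and 5.59% in KO cells. This was Adgrg1, an adhesion receptor that binds type III collagen, which rose by 0.96 ± 0.08 in Ctrl cells (edgeR adjusted p = 1.09e-07) and by 0.75 ± 0.08 in KO cells (edgeR adjusted p = 4.22e-06). No receptor passed between KO and Ctrl cells in edgeR. The shares of all tested genes called were 0.0191% in PBS, 0.255% with ligand and 1.38% over both. Of 19 genes of collagen degradation, 18 were tested. The collagenase Mmp13 fell by 0.58 on the log2 scale in Ctrl cells (edgeR adjusted p = 0.0136), in 4 of 4 isolations, and without isolation 2 this was not past the threshold (adjusted p = 0.119). Over both genotypes Mmp13 and Mmp10 were lower with ligand, and the gelatinase Mmp2 and the protease inhibitors Timp1 and Timp2 were higher, 5 of 18 (27.8%) beside 13.1% of all tested genes. Without isolation 1 the last 3 missed the threshold (adjusted p of 0.133 for Mmp2, 0.0739 for Timp1 and 0.104 for Timp2), and Timp1 also did without isolation 2 (adjusted p = 0.0549). None of the 18 passed between KO and Ctrl cells, beside the same small shares of all tested genes as given for the receptors.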

How the data were processed

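RNA from MLECs of 4 isolations was sequenced in 4 groups of 4 libraries. The authors deposited a table of raw counts, with reads summed per gene and no normalisation. Per the submitters' processing notes, HISAT2 2.0.5, featureCounts 1.5.0-p3, DESeq2 1.26.0 and GRCm39 were used. The annotation release and the strand setting of the counting are not given in the sources used here, so reads of overlapping antisense genes cannot be told apart. The authors' later quantile normalisation, ComBat and DESeq2 steps are not part of these counts.

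Libraries were grouped by their labels and none was left out. Libraries with the same replicate number come from the same isolation, and their deviations from the group means correlated in all 24 pairs (mean r = 0.757, lowest 0.670). Counts of 15693 of 55414 genes passed edgeR's filterByExpr by group (minimum count 10, minimum total 15). In R 4.3.3, edgeR 4.0.16 quasi-likelihood tests with TMM normalisation were fitted to all 16 libraries with the isolation as a block, for 7 comparisons, with Benjamini-Hochberg adjustment over all tested genes and a threshold of 0.05. Errors are SE unless named SD. CPM are TMM-scaled, and a prior count of 2 was added for log2 values within an isolation. The deposited gene lengths served for CPM per kb. Against exon unions from GENCODE (GRCm39, perhaps another release than the authors'), their median ratio was 0.989 (lowest 0.540). Promoter windows are RefSeq's on GRCm38.p6, and 35 of 44 chains matched by symbol. The procedure was tested on simulated data, with libraries drawn independently and each gene's KO effect the same in every isolation. It could not test how PBS and ligand libraries of the same cells bear on calls over both treatments. No pair of libraries within a group was close enough to be 1 library deposited again. No pairing of cultures beyond the isolation is stated. With the isolation as a block, p-values measure the spread left between libraries once differences between isolations are removed, and not the spread between isolations.

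Values per library are given for chains past the threshold in a comparison, for the 3 chains of each class with the highest level per kb, for Col3a1, Col6a1 and Col6a2, and for their partners. Some others (Col14a1, Col23a1 and Col7a1, and the markers Dcn, Pdgfrb, Upk3b, Msln and Esam) were named after their values were seen. The chains and gene lists were chosen with earlier results of these data known. Alternatives were no replicate block, DESeq2 1.42.0, DESeq2's size factors (RLE), no filter, at least 10 counts in every library, only the 8 libraries of a comparison, each isolation left out, CPM by library total and, added after seeing the data, the libraries of an isolation summed.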

Additional observations from a re-analysis of the deposited data

Results flagged for a closer look

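Col5a2 and Col15a1 were singled out because 1 library stood far from the other 3 of its group, by Dixon's test at the 95% level. Col5a2 in Ctrl PBS cells was 258 CPM in isolation 1, against 165 to 178 CPM in the others, and in Ctrl sENG(M):BMP9 cells it was 252 CPM in isolation 1, against 165 to 172 CPM. Col15a1 in Ctrl PBS cells was 49.5 CPM in isolation 2, against 182 to 204 CPM in the others, and in Ctrl sENG(M):BMP9 cells it was 48.9 CPM in isolation 2, against 190 to 199 CPM. The same isolation stood apart in both Ctrl groups of each chain, and these groups share their isolations. In all, 72 groups were tested (18 chains in 4 groups) and 4 stood out. Chance flags about 1 in 20 groups.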

How the results depend on the processing

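With DESeq2's size factors every chain call was the same as with TMM. CPM by library total moved none of the 18 mean levels checked by more than the SD of that chain's 4 isolation means. This is a wide limit, since isolations differ widely. The numbers below are chains called, then all genes called. Without the replicate block the count was 0 chains in every comparison, and the calls over all genes went from 1521 to 167 for ligand in Ctrl cells, from 878 to 91 for ligand in KO cells, from 2056 to 372 for ligand over both genotypes, and from 3, 40 and 217 to 1 each for KO against Ctrl in PBS, with ligand and over both. Without a filter on low counts, 10 chains (204 genes) were called for KO against Ctrl in PBS, 8 chains (517 genes) with ligand and 12 chains (597 genes) over both, and 52 genes for the difference of responses, none a chain. The cause was not tested. DESeq2 with the replicate block called 4 chains (108 genes) with ligand and 7 genes in PBS. With only the 8 libraries of a comparison, 1 chain (Col4a6) was called for ligand in Ctrl cells, 2 (Col13a1 and Col8a1) for ligand in KO cells, and 0 chains (1 gene) for KO against Ctrl in PBS. With at least 10 counts in every library 7 chains were lower in KO cells over both, Col4a6 missing the threshold. An alternative chosen after seeing the data summed the libraries that share an isolation over the other factor, with the replicate block. It called 1 chain (19 genes) for KO against Ctrl over both and 2 chains (1941 genes) for ligand over both genotypes, the latter being Col13a1 and Col8a1 as with all 16 libraries.

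Leaving out 1 isolation gave 0 to 0 chains (573 to 745 genes) for ligand in KO cells, 1 to 1 for ligand over both genotypes, 0 to 2 (1 to 69 genes) for KO against Ctrl in PBS, 0 to 3 (6 to 175 genes) with ligand, and 2 to 6 (44 to 257 genes) over both. The lowest of these last counts came without isolation 3, where Col3a1 and Col5a2 were called, and the highest without isolation 4. Estimates that changed sign were near 0 except that of Col4a6 with ligand, which was -0.18 with all 16 libraries and lay between -0.31 and 0.087 with 1 isolation left out, the latter without isolation 1. Over both treatments Col4a2 lay between -0.025 and 0.016 with 1 isolation left out, and was 0.0029 without the replicate block, 6.72e-05 with DESeq2, 4.22e-05 with RLE and 0.0012 without a filter. With 1 isolation left out, Col4a1 lay between -0.021 and 4.45e-04 and Col18a1 between -0.028 and 0.025. The difference of responses of Col3a1 was 0.0021 without the block and lay between -0.047 and 5.32e-04 with 1 isolation left out.

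Depth limits the 12 untested chains and, among the tested ones, those under about 1 CPM per kb, whose intervals are wide. The replicates are 4 isolations.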

Other observations

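Partner chains of a trimer kept different balances across the isolations. The ratio of Col4a1 to Col4a2, both in CPM per kb, lay between 1.45 and 1.56 in all 16 libraries. The ratio of Col6a1 to Col6a2 lay between 2.43 and 3.17. The ratio of Col1a1 to Col1a2 was 2.47, 2.49, 6.25 and 3.48 in isolations 1 to 4, so that isolation 3 had the highest, and over single libraries it ran from 2.14 to 6.42. Col6a3 relative to Col6a1 was 0.423 in isolation 2 and 0.114 to 0.146 in the others. Col4a5 relative to Col4a6 was 10.02 in isolation 2 and 2.67 in isolation 1. Col3a1 relative to Col5a2, its neighbour on chromosome 1, was 0.446, 0.197, 0.821 and 0.523 in isolations 1 to 4. Ratios per kb depend on the deposited gene lengths, and their relative spread over libraries does not. Those lengths lie under the GENCODE exon unions for some chains, such as 4380 against 5847 bases for Col6a1 and 6718 against 9340 for Col4a5. No explanation of these ratios was tested.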
